A study of Mus musculus with 23 samples.

Results

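LEC-only regions are stretches of the genome that carried a histone mark in mouse lateral entorhinal cortex (LEC) and lay under no region of that mark in anterior cingulate cortex (ACC), retrosplenial cortex (RSC) or medial entorhinal cortex (MEC). They were chosen by the measured lists themselves: on the autosomes, each LEC region of 1000 bp or wider was taken when it shared no base with the full lists of the other 3 subregions for its mark. There were 7221 of them, 3822 for H3K27ac and 3399 for H3K4me2, among 334051 regions in the 8 full lists of the series. LEC regions of that width that shared 1 bp or more with another subregion are called shared, and they numbered 35076 for H3K27ac and 39926 for H3K4me2.

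The study profiled H3K27ac and H3K4me2 by chromatin immunoprecipitation and sequencing in these 4 subregions, to learn how active enhancers differ between closely related cortical areas. All tissue was from C57BL6J mice at postnatal day 56, dissected along architectural borders from both hemispheres of unstained sections of 500 µm and snap-frozen, with no transgene, treatment or cell sorting named in the labels. LEC had 2 libraries for each mark and 2 input libraries, and ACC, RSC and MEC had the same except for a single MEC H3K4me2 library. The authors deposited 1 full list and 1 enhancer list per subregion and mark, with no values per library, so no figure given here has a replicate error and no test across libraries could be made. Ranges after percentages are 95% intervals (Wilson, or Newcombe for a difference) that cover counting error only, and regions are not replicates of a subregion. The labels give neither the sex of the mice nor whether the libraries of a subregion were made from separate ones. The tissue was whole cortex of mixed neurons and glia, in which fewer cells carrying a mark and less of the mark per cell cannot be told apart, and the LEC label was not checked against marker genes because the lists name none.

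H3K27ac, acetylation of lysine 27 of histone H3, marks enhancers and promoters that are in use. H3K4me2, dimethylation of lysine 4, marks enhancers and promoters more broadly, including ones that are not in use at the time. LEC is the division of the entorhinal cortex that passes information on objects and their context to the hippocampus, while its neighbour MEC is known for cells that map position, and ACC and RSC lie on the midline of the hemisphere.

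About 1 region in 10 of the LEC H3K27ac list, and somewhat fewer of the LEC H3K4me2 list, belonged to LEC alone. The LEC-only share was 9.83% of 38898 H3K27ac regions and 7.85% of 43325 H3K4me2 regions. Put through the rule in the place of LEC, ACC kept 13.1% of its H3K27ac and 11.6% of its H3K4me2 regions, RSC kept 8.55% and 6.71%, and MEC kept 4.69% and 0.758%. For both marks LEC stood below ACC and above RSC and MEC. The length of the lists had the same order: ACC had the longest lists (43432 and 48590 regions of at least 1000 bp) and MEC the shortest (20510 and 16750). The depth behind each list is unknown. Regions elsewhere were searched at any width, which gave 46928 and 53038 autosomal regions in ACC and 22229 and 28770 in MEC. In the MEC H3K4me2 list, from a single library, 12020 regions were narrower than 1000 bp, against 3638 of 46963 in LEC. A subregion with a shorter list leaves fewer regions that can overlap LEC, so a LEC-only region is one absent from these lists, not one shown to lack the mark elsewhere.

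The edges of the rule were sharper in overlap than in width. Among LEC-only regions, 8 for each mark lay within 100 bp of a region elsewhere, and 122 (3.19%) for H3K27ac and 132 (3.88%) for H3K4me2 lay within 1000 bp. Among shared regions, 2 for H3K27ac and 6 for H3K4me2 shared 100 bp or less. At least 50% of the width was covered elsewhere in 96.9% of shared H3K27ac and 97.8% of shared H3K4me2 regions, so few regions sat between the sets. Width was another matter: of H3K27ac regions exactly 1000 bp wide, just inside the limit, 86 of 261 (33.0%) overlapped nothing elsewhere, as did 126 of 316 (39.9%) of those that were 25 bp narrower, just outside it. For H3K4me2 these were 157 of 478 (32.8%) and 221 of 640 (34.5%).

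LEC-only regions were narrow. H3K27ac LEC-only regions had a median width of 1750 bp (quartiles 1300 and 2425 bp), against 2750 bp (1925 and 4500 bp) for shared regions. H3K4me2 LEC-only regions had a median of 1300 bp (1125 and 1625 bp), against 2275 bp (1500 and 3900 bp) for shared regions. Regions of 5000 bp or wider made up 102 (2.67%) of LEC-only H3K27ac regions, against 7337 (20.9%) of shared ones. For H3K4me2 they were 11 (0.324%) of LEC-only and 6522 (16.3%) of shared regions. The LEC-only set covered 7.89 Mb for H3K27ac, against 137 Mb for the shared set, and 5.11 Mb for H3K4me2, against 129 Mb. Because a wider region meets other regions more readily, width is part of what the rule selected.

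Read by width class, the LEC-only share of H3K27ac regions was 25.4% at 1000 to under 1500 bp, 14.2% at 1500 to under 2000 bp, 9.11% at 2000 to under 3000 bp, 4.97% at 3000 to under 5000 bp and 1.37% from 5000 bp. For H3K4me2 the share was 19.2%, 7.48%, 4.79%, 1.14% and 0.168% over the same 5 classes. The fall was steeper for H3K4me2, which had few wide regions found in LEC alone.

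**Figure D1:**
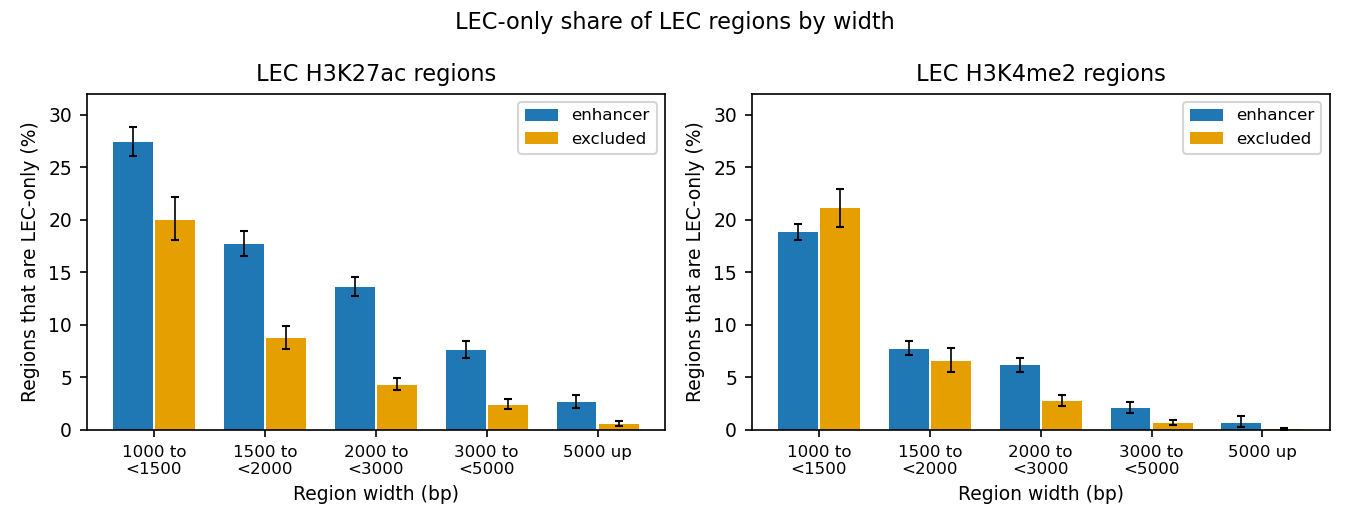
Percentage of LEC regions that were LEC-only (vertical axis) in 5 width classes in bp (horizontal axis), for H3K27ac (left) and H3K4me2 (right), with enhancer regions in blue and excluded regions in orange; bars carry Wilson 95% intervals for counting error. At 2000 to under 3000 bp, 13.6% of enhancer and 4.31% of excluded H3K27ac regions were LEC-only, while at 1000 to under 1500 bp the H3K4me2 shares were 18.8% and 21.1%.

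ACC was the subregion that LEC regions met most often. Of LEC H3K27ac regions, 80.6% overlapped an ACC region, 68.4% an RSC region and 41.3% a MEC region. The H3K4me2 shares were 82.1% for ACC, 70.8% for RSC and 46.0% for MEC. The order follows list length, and MEC, although the other division of the entorhinal cortex, was the sole partner of 450 H3K27ac regions (1.16%) and 558 H3K4me2 regions (1.29%). ACC was the sole partner of 6516 (16.8%) and 6489 (15.0%), and RSC of 1545 (3.97%) and 1770 (4.09%). Regions found in all 4 subregions numbered 12350 (31.7%) for H3K27ac and 15118 (34.9%) for H3K4me2.

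Most LEC-only regions were ones that the authors kept in their enhancer list. How that list was drawn up is not given in the labels, so the remaining regions of the full list are called excluded and not promoters. Enhancer regions made up 2959 of 3822 LEC-only H3K27ac regions (77.4%, 76.1 to 78.7), against 17793 of 35076 shared ones (50.7%, 50.2 to 51.3), and 863 LEC-only regions were excluded ones. For H3K4me2 they made up 2740 of 3399 LEC-only regions (80.6%, 79.2 to 81.9), against 22622 of 39926 shared ones (56.7%, 56.2 to 57.1), and 659 were excluded. Pooled over partners, the enhancer share was lower the more subregions carried the region. For H3K27ac it was 77.4% with no other subregion, 63.9% with 1, 53.8% with 2 and 38.1% with 3. For H3K4me2 it was 80.6%, 76.4%, 66.8% and 34.5%. Split by partner, it was lower wherever MEC was one. The H3K27ac share was 65.2% with ACC alone, 66.3% with RSC alone and 60.9% with both. It was 36.4% with MEC alone, 32.5% with ACC and MEC, 27.6% with RSC and MEC and 38.1% with all. In the same order the H3K4me2 shares were 77.7%, 78.8% and 77.2% without MEC, and 54.1%, 41.3%, 34.3% and 34.5% with it.

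Width moved with the enhancer share, and the marks differed once width was held in classes. Among H3K27ac regions the enhancer share was higher in LEC-only than in shared regions in each of the 5 classes, by 7.62 percentage points (5.02 to 10.1) at 1000 to under 1500 bp and by 28.0 (25.1 to 30.8) at 2000 to under 3000 bp. Among H3K4me2 regions it was 82.0% in LEC-only and 84.0% in shared regions at 1000 to under 1500 bp, a difference of -2.01 percentage points (-3.79 to -0.309), and 80.7% and 77.8% at 1500 to under 2000 bp, a difference of 2.92 (-0.479 to 5.96). At 2000 to under 3000 bp it was 77.1% in LEC-only and 59.2% in shared H3K4me2 regions, a difference of 17.9 (13.4 to 21.9). So 2896 of the 3399 LEC-only H3K4me2 regions fell in the narrow classes, where the enhancer shares of the 2 sets lay within a few points of each other.

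The other mark came from libraries that the rule did not use. The marks often lay over the same places, however, so the other mark is not independent of the rule. It was found at LEC-only regions less often than at shared ones in all 4 subregions. H3K4me2 of LEC overlapped 1932 of 3822 LEC-only H3K27ac regions (50.5%, 49.0 to 52.1), against 26047 of 35076 shared ones (74.3%, 73.8 to 74.7), a difference of -23.7 percentage points (-25.4 to -22.1). H3K27ac of LEC overlapped 1468 of 3399 LEC-only H3K4me2 regions (43.2%, 41.5 to 44.9), against 27810 of 39926 shared ones (69.7%, 69.2 to 70.1), a difference of -26.5 (-28.2 to -24.7). Both differences had this sign on 19 of 19 autosomes. They lay between -31.8 and -14.7 percentage points for H3K27ac regions and between -31.1 and -21.5 for H3K4me2 regions. All chromosomes were read from the same lists and are not replicates. The sign was the opposite when the LEC lists were kept full and only the enhancer lists of ACC, RSC and MEC were searched. The differences were then 4.56 (3.66 to 5.45) and 7.25 (6.37 to 8.13) percentage points. That setting compares unlike lists, because excluded LEC regions were searched against enhancer regions alone. Enhancer regions made up 18.7% and 16.8% of the LEC-only regions it gave.

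Within the LEC-only set, however, the other mark was found most often in LEC itself. H3K4me2 of ACC overlapped 38.6% (37.1 to 40.1) of LEC-only H3K27ac regions, that of RSC 25.2% (23.8 to 26.6) and that of MEC 13.2% (12.2 to 14.3), all below the 50.5% in LEC. These regions were picked for lacking H3K27ac elsewhere, and how far the lower H3K4me2 shares elsewhere follow from that was not tested. At shared H3K27ac regions the order was different, with H3K4me2 over 74.3% in LEC, 78.1% in ACC, 69.5% in RSC and 48.9% in MEC. The ACC H3K4me2 list was the longest of the 4, and ACC lay above LEC at shared regions but not at LEC-only ones. Region by region, 770 LEC-only H3K27ac regions had H3K4me2 in LEC and not in ACC and 313 had it in ACC and not in LEC, while among shared regions these numbers were 3317 and 4647.

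The reverse reading gave the same order. H3K27ac of ACC overlapped 29.1% (27.6 to 30.6) of LEC-only H3K4me2 regions, that of RSC 16.3% (15.1 to 17.6) and that of MEC 5.18% (4.48 to 5.97), against 43.2% in LEC. At shared H3K4me2 regions H3K27ac lay over 69.7% in LEC, 71.5% in ACC, 59.9% in RSC and 38.3% in MEC. There were 713 LEC-only H3K4me2 regions with H3K27ac in LEC and not in ACC and 234 with the opposite, while among shared regions these were 4097 and 4824. The lead of LEC over ACC at LEC-only regions held on 19 of 19 autosomes for both marks, all read from the same lists. Its median over chromosomes was 11.1 percentage points for H3K27ac regions and 14.1 for H3K4me2 regions. Such a lead was not particular to LEC: own H3K4me2 lay over 52.7% of ACC-only H3K27ac regions, against 34.6% for that of LEC, and over 31.5% of RSC-only ones, against 22.8% for that of ACC. It was not seen in MEC-only regions, where H3K4me2 lay over 16.6% of H3K27ac regions in MEC and 16.9% in RSC, and H3K27ac over 37.8% of H3K4me2 regions in MEC and 43.3% in ACC.

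**Figure D2:**
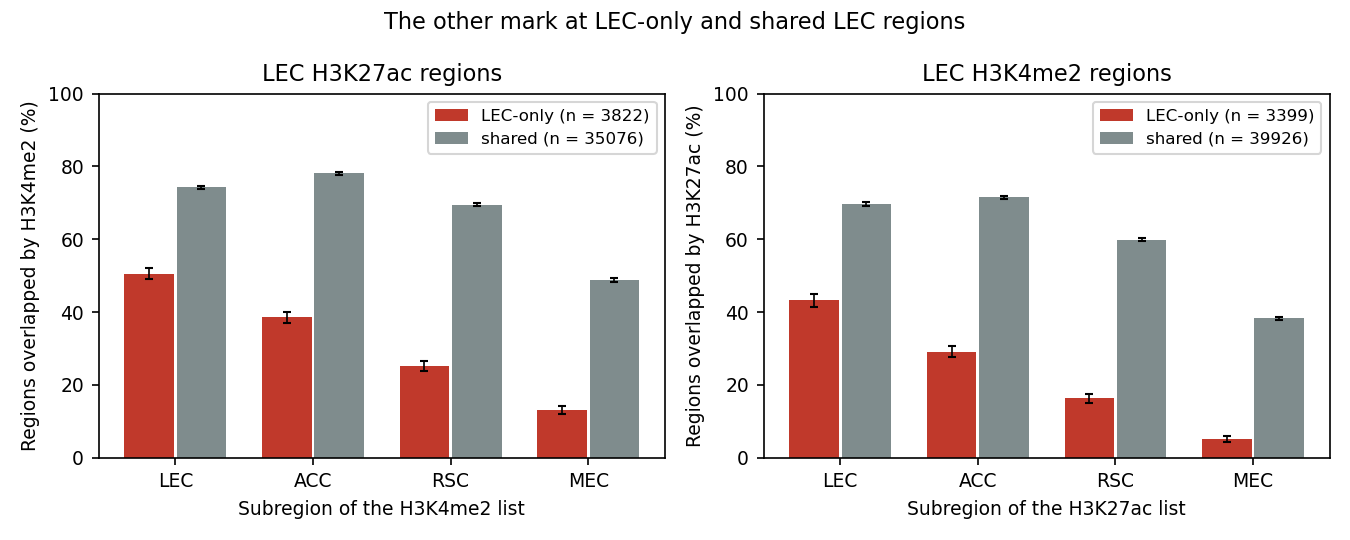
Percentage of LEC H3K27ac regions overlapped by H3K4me2 (left) and of LEC H3K4me2 regions overlapped by H3K27ac (right), for the lists of LEC, ACC, RSC and MEC; LEC-only regions are in red, shared regions in grey, and bars carry Wilson 95% intervals for counting error. Red bars are highest for LEC (50.5% and 43.2%), grey bars for ACC (78.1% and 71.5%).

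Enhancer and excluded LEC-only regions both kept the order of LEC, ACC, RSC and MEC, at different levels. H3K4me2 of LEC, ACC, RSC and MEC lay over 49.6%, 37.5%, 22.8% and 10.1% of LEC-only H3K27ac enhancer regions, against 67.5%, 74.1%, 62.1% and 28.8% of shared enhancer regions. Over LEC-only excluded H3K27ac regions the shares were 53.9%, 42.3%, 33.4% and 23.6%, against 81.2%, 82.1%, 77.1% and 69.6% of shared excluded regions. MEC H3K4me2 was thus found over 23.6% (20.9 to 26.6) of excluded and 10.1% (9.10 to 11.3) of enhancer regions that were LEC-only for H3K27ac. For LEC-only H3K4me2 regions, H3K27ac of LEC lay over 42.0% of enhancer and 48.1% of excluded regions, and H3K27ac of ACC over 26.8% and 38.7%. Shared H3K4me2 regions were not uniform in this: H3K27ac of LEC and ACC lay over 62.3% and 67.0% of enhancer regions but over 79.2% and 77.3% of excluded ones, so that LEC led ACC among shared excluded regions as well, by less than among LEC-only ones.

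The gap between the sets was smaller among narrow regions, and with enhancer and excluded regions pooled its sign was the same in all 5 width classes for both marks. At 1000 to under 1500 bp, LEC H3K4me2 lay over 46.4% of LEC-only and 56.3% of shared H3K27ac regions, a difference of -9.96 percentage points (-13.0 to -6.92). At 2000 to under 3000 bp it lay over 50.0% and 73.0%, a difference of -23.0 (-26.2 to -19.7), and from 5000 bp over 62.7% and 87.9%, a difference of -25.2 (-34.9 to -16.4). For H3K4me2 regions the difference in LEC H3K27ac was -4.34 (-6.54 to -2.12) at 1000 to under 1500 bp, -9.33 (-13.4 to -5.32) at 1500 to under 2000 bp, -15.7 (-20.6 to -10.9) at 2000 to under 3000 bp and -29.2 (-39.3 to -19.5) at 3000 to under 5000 bp. In the narrowest class, which held 2269 of the 3399 LEC-only H3K4me2 regions, LEC-only and shared regions were therefore close, at 36.4% and 40.7%. Excluded H3K4me2 regions alone varied in sign, with differences of -0.887 (-6.15 to 4.52) at 1000 to under 1500 bp and 1.92 (-7.27 to 10.5) at 1500 to under 2000 bp, and their widest class held 4 LEC-only regions.

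The lead of LEC over ACC was seen in the width classes as well. LEC-only H3K27ac regions of 1000 to under 1500 bp had H3K4me2 in LEC in 46.4% and in ACC in 38.1%, those of 1500 to under 2000 bp in 53.5% and 37.4%, and those of 3000 to under 5000 bp in 55.9% and 42.6%. LEC-only H3K4me2 regions had H3K27ac in LEC in 36.4% and in ACC in 24.2% at 1000 to under 1500 bp, and in 54.7% and 35.1% at 1500 to under 2000 bp. At 3000 to under 5000 bp, with 94 regions, the shares were 55.3% (45.3 to 65.0) in LEC and 47.9% (38.1 to 57.9) in ACC, with intervals that overlapped. Among shared H3K4me2 regions LEC also lay above ACC in the wide classes. The shares were 84.5% and 81.2% at 3000 to under 5000 bp, and 92.1% and 89.3% from 5000 bp. In the narrower classes of shared H3K4me2 regions LEC lay below ACC.

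**Figure D3:**
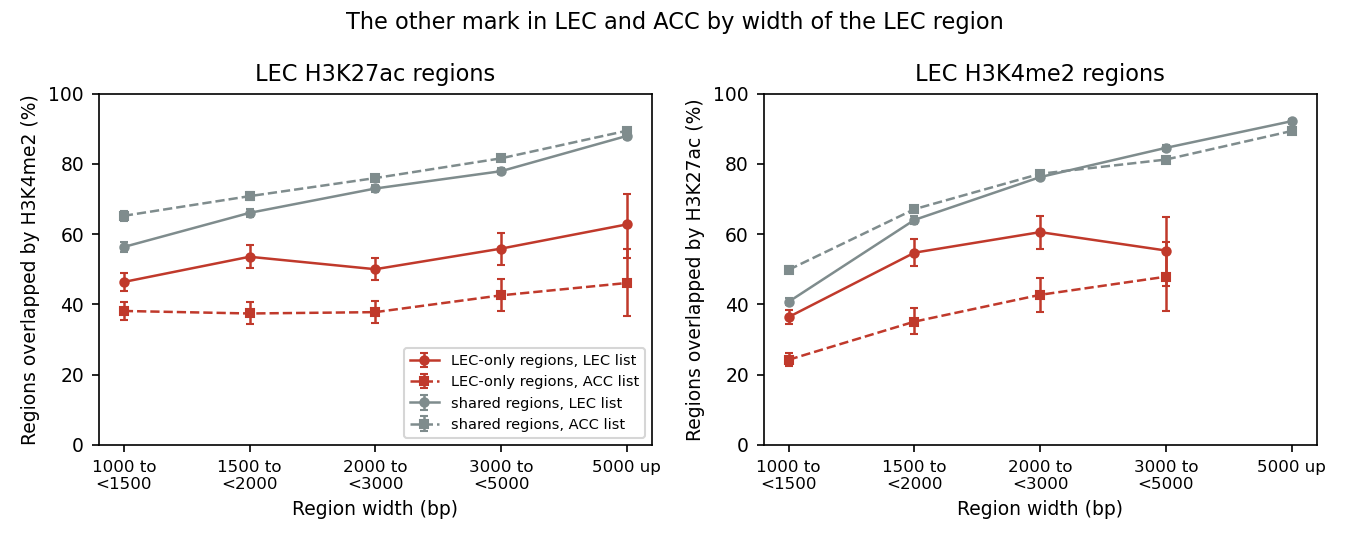
Percentage of LEC regions overlapped by the other mark (vertical axis) in 5 width classes in bp (horizontal axis), for LEC H3K27ac regions (left) and LEC H3K4me2 regions (right); red is LEC-only and grey is shared, solid lines are the LEC list and dashed lines the ACC list, and bars are Wilson 95% intervals. Classes with fewer than 20 regions are not drawn, which leaves out the 11 LEC-only H3K4me2 regions from 5000 bp; among LEC-only regions the LEC line lies above the ACC line.

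Taking the 4 lists of the other mark together, LEC-only regions fell into 4 kinds. Among LEC-only H3K27ac regions, 596 (15.6%) had H3K4me2 in LEC alone, 1336 (35.0%) had it in LEC and at least 1 other subregion, 416 (10.9%) had it elsewhere and not in LEC, and 1474 (38.6%) had it in none of the 4. Among shared H3K27ac regions these were 815 (2.32%), 25232 (71.9%), 5573 (15.9%) and 3456 (9.85%). The kind with H3K4me2 in LEC and elsewhere is made of places where the list of H3K27ac was confined to LEC while that of H3K4me2 was not.

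LEC-only H3K4me2 regions had H3K27ac in LEC alone in 612 cases (18%), in LEC and elsewhere in 856 (25.2%), elsewhere and not in LEC in 272 (8.0%) and in none of the 4 in 1659 (48.8%). Shared H3K4me2 regions gave 1492 (3.74%), 26318 (65.9%), 5672 (14.2%) and 6444 (16.1%). With enhancer and excluded regions pooled, those without the other mark in any subregion were the most frequent kind of LEC-only region for both marks, and regions with it in LEC and elsewhere the most frequent kind of shared region. Excluded LEC-only H3K27ac regions differed from this, with 345 (39.98%) in LEC and elsewhere and 301 (34.9%) in none of the 4.

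**Figure D4:**
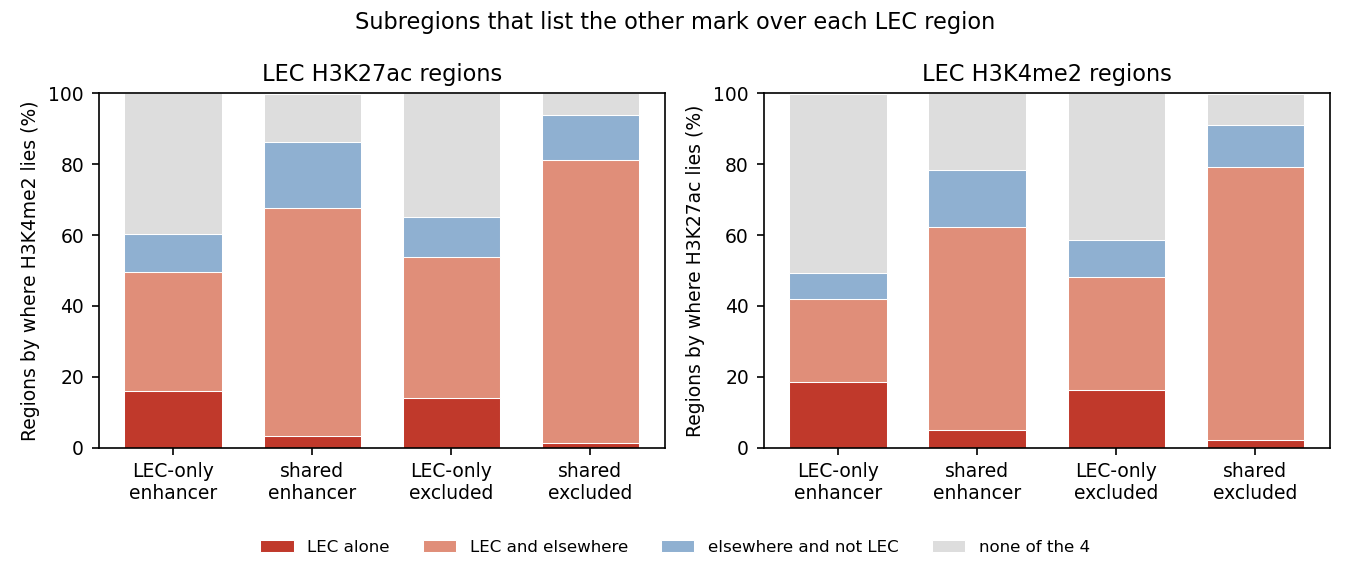
Stacked percentages of LEC H3K27ac regions (left) and LEC H3K4me2 regions (right) by the subregions whose list of the other mark overlaps them, for LEC-only and shared enhancer regions and LEC-only and shared excluded regions. The dark red portion, with the other mark in LEC alone, is larger in LEC-only than in shared bars for both kinds of region; over both kinds it is 15.6% against 2.32% for H3K27ac and 18% against 3.74% for H3K4me2.

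The share with the other mark in LEC was higher the more subregions carried a region. For H3K27ac regions carried by LEC and 0, 1, 2 or 3 other subregions, LEC H3K4me2 lay over 50.5%, 64.3%, 71.9% and 83.9%, and the median width was 1750, 2000, 2600 and 3950 bp. Within the class of 2000 to under 3000 bp these shares were 50.0%, 65.2%, 71.7% and 80.9%. For H3K4me2 regions LEC H3K27ac lay over 43.2%, 55.4%, 67.0% and 80.8%, and the median width was 1300, 1500, 1950 and 3700 bp. At 1000 to under 1500 bp, though, the H3K4me2 shares were 36.4%, 41.1%, 41.1% and 37.5%, with no steady order.

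LEC H3K27ac regions shared with 1 subregion alone differed by partner. The 450 LEC H3K27ac regions shared with MEC alone had H3K4me2 in LEC in 78.0% (73.9 to 81.6), in ACC in 68.9%, in RSC in 70.0% and in MEC in 69.8%, although their H3K27ac was in no ACC or RSC region. Their median width was 2387.5 bp, and 36.4% were enhancer regions. The 6516 shared with ACC alone had H3K4me2 in LEC in 64.7%, in ACC in 69.2%, in RSC in 44.4% and in MEC in 24%. Of these, 65.2% were enhancer regions. The 1545 shared with RSC alone had H3K4me2 in LEC in 58.7%, in ACC in 56.8%, in RSC in 56.9% and in MEC in 33.3%.

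A LEC-only H3K4me2 region lay under 502 of 3822 LEC-only H3K27ac regions (13.1%, 12.1 to 14.2), against 869 of 35076 shared ones (2.48%, 2.32 to 2.65). Counted among H3K27ac regions that had any LEC H3K4me2 region of at least 1000 bp, it lay under 502 of 1796 LEC-only regions (28.0%, 25.9 to 30.1), against 869 of 25489 shared ones (3.41%, 3.19 to 3.64). Read from H3K4me2, 507 of 3399 LEC-only regions (14.9%) lay under a LEC-only H3K27ac region. The number of these places depended on the lists searched and the width limit. It was 2345 without the ACC list and 67 at a minimum width of 2000 bp. With the LEC lists kept full and only the enhancer lists elsewhere searched, which compares unlike lists, it was 11746. Of the 502 places, 396 (78.9%, 75.1 to 82.2) were H3K27ac enhancer regions, close to the 77.4% of all LEC-only H3K27ac regions. Their H3K27ac regions had a median width of 1887.5 bp, of which a median of 1275 bp lay under both marks. In 490 of the 502 (97.6%) no H3K4me2 region of ACC, RSC or MEC touched the H3K27ac region at any width. The places were picked for H3K4me2 that met none of these lists, so this share is largely what the rule selected.

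The widest overlap of both marks was at chr6:137263176-137268575 (all positions are in mm9, counted from 1), where an H3K27ac enhancer region of 5400 bp and an H3K4me2 enhancer region of 5350 bp shared 5350 bp. The nearest ACC H3K27ac region was 5.8 kb away, and within 50 kb there were 4 LEC, 3 ACC, 1 RSC and 0 MEC H3K27ac regions. At chr1:19093276-19098350 an excluded H3K27ac region of 5075 bp shared 4825 bp with an H3K4me2 region of 5550 bp. It stood more alone, with the nearest H3K27ac region elsewhere at 100.3 kb and no ACC, RSC or MEC H3K27ac region within 50 kb. The next was chr11:119037726-119044000, an H3K27ac enhancer region of 6275 bp over 2 LEC-only H3K4me2 regions that covered 4725 bp of it. The other two were chr6:99374451-99383275, of 8825 bp with 3825 bp under both marks, and chr2:165002076-165005675, of 3600 bp with 3375 bp under both.

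LEC-only regions were spread over all autosomes. The LEC-only share of H3K27ac regions lay between 7.85% on chromosome 15 and 11.4% on chromosome 1, with a median of 9.93% over 19 autosomes. For H3K4me2 it lay between 6.57% on chromosome 7 and 9.36% on chromosome 14, with a median of 8.05%. Gene content could not be read at these positions, since no annotation of the mm9 build was used here, and no gene is named.

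Many LEC-only regions had the mark nearby in another subregion. The nearest region elsewhere was a median of 8.75 kb away (quartiles 3.55 and 21.9 kb) for H3K27ac and 6.125 kb (2.85 and 13.9 kb) for H3K4me2. It lay within 5 kb for 1315 H3K27ac regions (34.4%) and 1448 H3K4me2 regions (42.6%), and beyond 50 kb for 433 (11.3%) and 142 (4.18%). By subregion the median distance from a LEC-only H3K27ac region was 10.4 kb to ACC, 15.7 kb to RSC and 36.8 kb to MEC, again in the order of list length. Within LEC, with enhancer and excluded regions pooled, LEC-only regions lay farther from their nearest LEC neighbour than shared ones did. The medians were 10.2 kb against 7.025 kb for H3K27ac and 8.6 kb against 7.925 kb for H3K4me2. Excluded H3K4me2 regions did not show this, with a median of 8.45 kb in both sets. LEC-only enhancer regions were a median of 44.15 kb from the nearest excluded LEC H3K27ac region, against 28.95 kb for shared enhancer regions, and 38 kb against 32.6 kb for H3K4me2.

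**Figure D5:**
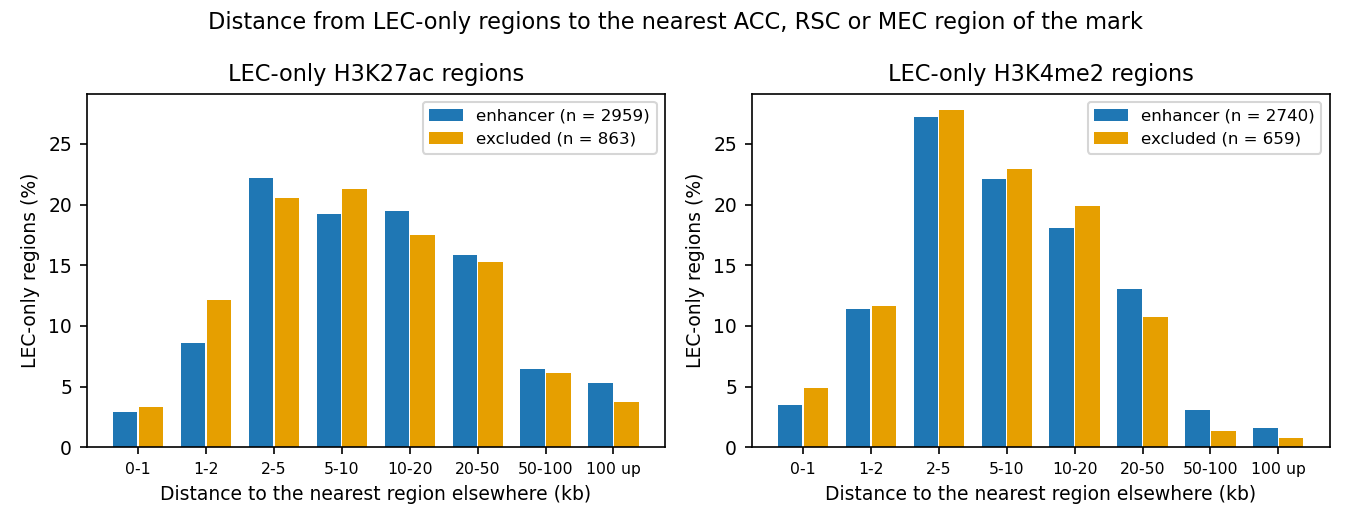
Percentage of LEC-only regions (vertical axis) by distance in kb to the nearest ACC, RSC or MEC region of the mark (horizontal axis, bins of unequal width), for H3K27ac (left) and H3K4me2 (right), with enhancer regions in blue and excluded regions in orange. The fullest bin is 2 to 5 kb for H3K4me2 (27.2% of enhancer and 27.8% of excluded regions), and 5.34% of H3K27ac enhancer regions lie beyond 100 kb.

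Some LEC-only enhancer regions lay in runs, with gaps of at most 100 kb between neighbours. The 2959 H3K27ac enhancer regions formed 2127 runs, of which 1619 were a single region (54.7% of the regions), 166 held 3 or more and 34 held 5 or more. The 2740 H3K4me2 enhancer regions formed 2106 runs, of which 1676 were a single region (61.2%), 139 held 3 or more and 11 held 5 or more. The longest H3K27ac run had 12 regions and the longest H3K4me2 run had 7. Runs were not counted for shared regions, so whether LEC-only regions cluster more than other listed regions was not tested.

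The H3K27ac run with the most regions was chr2:179202851-179486525, whose 12 LEC-only enhancer regions lay among 18 LEC H3K27ac regions covering 50.9 kb of 283.7 kb. Over the same interval ACC had 7 H3K27ac regions (17.975 kb), RSC 1 (0.65 kb) and MEC 0. The run was picked on H3K27ac, so that division is what the rule used. H3K4me2 had 17 LEC regions (33.9 kb), 16 ACC regions (31.9 kb), 7 RSC regions (9.875 kb) and 1 MEC region (0.5 kb) there. The run at chr13:53812401-54066150 had 11 LEC-only enhancer regions, and H3K27ac covered 91.9 kb in LEC, against 15.7 kb in ACC, 6.55 kb in RSC and 0 kb in MEC. H3K4me2 covered 19.6 kb there in LEC, against 22.4 kb in ACC, 5.6 kb in RSC and 0.525 kb in MEC. The run at chr6:39879226-40164100 had 10, with H3K27ac over 114.2 kb in LEC, 51.5 kb in ACC, 59.6 kb in RSC and 7.175 kb in MEC, and H3K4me2 over 64.8 kb in LEC, against 40.3 kb in ACC, 44.2 kb in RSC and 3.625 kb in MEC.

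The H3K4me2 run with the most regions in the shortest span was chr7:6705501-6844600, with 7 LEC-only enhancer regions in 139.1 kb. H3K4me2 covered 15.5 kb in LEC, 6.8 kb in ACC, 2.175 kb in RSC and 0.5 kb in MEC. H3K27ac, which was not used to find this run, covered 46.6 kb in 10 regions in LEC, against 2.475 kb in 2 regions in ACC and 0 regions in RSC and MEC, and 8 of the 10 were LEC-only. A second run of 7, chr5:112089201-112387875, was less one-sided, with H3K27ac over 65.4 kb in LEC, 48.2 kb in ACC, 21.9 kb in RSC and 3.875 kb in MEC. The run at chr17:28415951-28628950 had 6 LEC-only enhancer regions, with H3K27ac over 32.4 kb in LEC, 28.7 kb in ACC, 13.9 kb in RSC and 3.175 kb in MEC.

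The widest LEC-only H3K27ac enhancer region, chr7:6810101-6824325, lay inside the chromosome 7 run. It was 14225 bp wide, LEC H3K4me2 covered 2650 bp of it in 2 regions and no other subregion had H3K4me2 there. Its nearest ACC H3K27ac region was 2.5 kb away, and within 50 kb there were 10 LEC, 4 ACC, 0 RSC and 0 MEC H3K27ac regions. The second widest, chr3:36223176-36234150 with 10975 bp, had no H3K4me2 region in any subregion, and the third, chr13:53894226-53904625 with 10400 bp, lay in the chromosome 13 run with 1150 bp under LEC H3K4me2 and 1400 bp under ACC H3K4me2. The widest excluded region, chr17:86011626-86025750 with 14125 bp, was covered over its whole width by LEC H3K4me2, over 4200 bp by ACC H3K4me2 and over 1775 bp by RSC H3K4me2. No H3K27ac region of another subregion lay within 138.8 kb of it. The second widest excluded region, chr17:5314401-5325175 with 10775 bp, had no H3K4me2 in any subregion and an ACC H3K27ac region 1.775 kb away.

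The 3 widest LEC-only H3K4me2 enhancer regions had no H3K27ac in any subregion. They were chr17:10414851-10428325 with 13475 bp, chr7:76121551-76127250 with 5700 bp and chr14:12402451-12408050 with 5600 bp. The first missed being shared by 0.05 kb, the distance to the nearest ACC region. The widest excluded H3K4me2 region, chr16:35266751-35274125 with 7375 bp, was covered over its whole width by LEC H3K27ac and over 4275 bp by ACC H3K27ac, and the next, chr1:19092551-19098100 with 5550 bp, is the H3K4me2 region of the chromosome 1 place described above.

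The same rule was applied to each of the other subregions, to set beside LEC how often a subregion's own other mark accompanied its own regions. Own H3K4me2 lay over 50.5% (49.0 to 52.1) of LEC-only H3K27ac regions, against 52.7% (51.4 to 54.0) of ACC-only, 31.5% (29.9 to 33.1) of RSC-only and 16.6% (14.4 to 19.1) of MEC-only ones. Own H3K27ac lay over 43.2% (41.5 to 44.9) of LEC-only H3K4me2 regions, below ACC-only at 53.9% (52.6 to 55.2) and RSC-only at 52.2% (50.3 to 54.0), and 37.8% (29.8 to 46.5) of the 127 MEC-only ones. Enhancer regions made up 77.4% of LEC-only H3K27ac regions, 70.5% of ACC-only, 85.2% of RSC-only and 86.0% of MEC-only ones. LEC-only H3K27ac regions had a median width of 1750 bp, against 1575 bp in ACC, 1600 bp in RSC and 1875 bp in MEC. The 4 sets do not share regions by construction, but each was defined against the other lists, so these values are not independent of one another. The MEC H3K4me2 list had a single library behind it.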

How the data were processed

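H3K27ac and H3K4me2 region lists from 4 cortical subregions were analysed. The submitters' processing notes name mm9, Bowtie 1.1.1 and bedtools 2.19.0. A peak caller, its threshold, how libraries were combined and how enhancer lists were made are not stated there or in the labels. The deposited score values equalled region width in bp (0 exceptions), so they hold no enrichment. Positions lay on a 25 bp grid. Of 17 deposited lists 16 were used, since 1 repeats another. No read counts were used, so depth is unknown.

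Overlaps were computed with Python 3.11.15 and numpy 2.4.6, on autosomes, and checked on simulated lists and against bedtools 2.31.1. A LEC region was shared from 1 bp of overlap, and enhancer when the LEC enhancer list held the same start and end. Named were, outside chromosome 18, the 3 widest enhancer and 2 widest excluded LEC-only regions per mark, the 5 with most bases under both marks, and the 3 runs with most regions per mark. The regions, lists and rules were chosen with earlier results of these data known. Alternatives changed the minimum width, the overlap, the distance kept, the lists searched and the chromosomes. The gene and promoter tables at hand are for another build, so no gene is named and no sequence printed.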

Additional observations from a re-analysis of the deposited data

Results flagged for a closer look

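Chromosome X was outside the autosomes used above and also held LEC-only regions. There were 97 for H3K27ac, 9.15% of 1060 LEC regions of 1000 bp or wider, and 83 for H3K4me2, 7.39% of 1123, both within the range of the autosomes (7.85% to 11.4% for H3K27ac and 6.57% to 9.36% for H3K4me2). Enhancer regions made up 72 of the 97 and 70 of the 83.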

How the results depend on the processing

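The lists are 1 per subregion and mark, and that of MEC H3K4me2 had a single library behind it. No paired analysis was possible because no value per library is in them, and no library could be left out for that reason. Over 9 alternatives and 9 results, 81 values were computed, of which 33 stayed within the counting interval or within 1.5 times the count, 46 moved further and 2 reversed. In what follows the H3K27ac value comes first and the H3K4me2 value second. With a minimum width of 2000 bp there were 1512 and 503 LEC-only regions, the enhancer share of the second was 74.2%, the share with the other mark in LEC was 52.6% and 59.4%, its difference from shared regions was -26.3 and -24.4 percentage points, and 67 places were LEC-only in both marks. From 500 bp the share was 47.6% and 37.2%, the difference -25.7 and -30.4, and the H3K4me2 enhancer share 82.4%. With sharing counted from 50% of the width, the enhancer share was 74.9% and 78.9%, the share with the other mark 53.6% and 47.1%, the difference -20.9 and -22.7, and 787 places were LEC-only in both marks. Without the MEC list the enhancer share was 73.1% and 76.9%, the share with the other mark 53.4% and 46.1%, and the difference -20.8 and -23.6. Without the ACC list there were 10338 and 9888 LEC-only regions, with an enhancer share of 69.7% and 78.7%, the other mark in 59.5% and 51.6%, a difference of -17.0 and -20.7, and 2345 places in both marks. Without the RSC list there were 5169 LEC-only H3K4me2 regions, the H3K27ac enhancer share was 74.2%, and the other mark lay over 52.9% and 45.6%. With the LEC lists kept full and only the enhancer lists of ACC, RSC and MEC searched, 19771 and 18911 regions were LEC-only. Their enhancer share was 18.7% and 16.8%, the other mark lay over 74.2% and 71.7%, and 11746 places were LEC-only in both marks. Excluded LEC regions were there searched against enhancer regions alone, so the lists compared were unlike. There the difference from shared regions reversed, to 4.56 and 7.25 percentage points, and the cause was not tested. Keeping 1000 bp of distance and using all chromosomes moved none of the 9 results past these limits. Shared regions are wider, depth is unknown and the lists carry no signal, so a region missing from a list may lie just under its threshold.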

Other observations

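The opposite of a LEC-only region is one that MEC shares with ACC and RSC and that LEC lacks. Of 14732 MEC H3K27ac regions of 1000 bp or wider found in ACC and RSC as well, 2192 overlapped no LEC region (14.9%, 14.3 to 15.5). By the same count ACC lacked 1707 of 14247 found in the remaining 3 (12.0%, 11.5 to 12.5), and RSC lacked 1515 of 14055 (10.8%, 10.3 to 11.3). Enhancer regions made up 60.8% of those lacking in LEC, against 46.0% of all 14732. They made up 29.6% of those lacking in ACC, against 41.8% of all 14247, and 33.5% of those lacking in RSC, against 42.4% of all 14055. For H3K4me2 the shares lacking were 10.9% in LEC, 12.0% in ACC and 12.1% in RSC. Enhancer regions made up 29.2% of H3K4me2 regions lacking in LEC, against 23.6% of all. They made up 24.8% of those lacking in RSC, against 23.2% of all, and 20.5% of those lacking in ACC, against 22.6%. These sets share MEC regions and have no replicate values, and the depth behind the LEC list is unknown.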
